A study of Homo sapiens with 12 samples.

Results

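Axon guidance in RRM1-depleted Ewing sarcoma cells was examined through the semaphorins with their neuropilin and plexin receptors, the ephrins with the Eph receptor tyrosine kinases, the Slits with the Robo receptors, and the netrins with the UNC5 receptors. The genes were chosen by name: every row of the count table whose symbol belongs to these families was taken, which gave 56 of 20771 genes. The set was put forward because UNC5C had the largest fall among the genes named in the TC71 comparison, so the TC71 responses are given as a description, with counts past the same limits as in EW8 cells but no p-values. Enough counts for testing were present for 50 of the 56 genes, and for 16515 of all genes.

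The study followed RNA in a pair of Ewing sarcoma lines, EW8-RRM1-KO and TC71-RRM1-KO, in which RRM1, the large subunit of ribonucleotide reductase, was knocked out with lentiviral CRISPR/Cas9. A codon-optimized RRM1 transgene that is switched on by doxycycline kept the cells supplied with the enzyme, and each line was grown from a single cell. Cells at 0 h had doxycycline, and cells at 48 h had been without it for 48 hours, in DMEM with serum. Each of the 4 groups had 3 libraries of polyadenylated RNA. All groups carried Cas9, the knockout and the transgene, and unmodified cells were not analysed here, so that loss of RRM1 and absence of doxycycline cannot be told apart. Nothing in the sources used here says that the replicates came from separate cultures, and the p-values then measure the spread between these libraries, which may be technical.

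Guidance cues are secreted or membrane-bound proteins that attract or repel a growing axon, and outside the nervous system they steer cell adhesion, migration and vessel growth. Class 3 semaphorins are secreted and bind neuropilin and plexin complexes, whereas most other semaphorins are anchored in the membrane and bind plexins directly. Ephrins and Eph receptors signal at cell contacts and in both directions, with ephrin-A ligands held by a lipid anchor and ephrin-B ligands spanning the membrane. Slits repel cells through Robo receptors, and netrins repel them through UNC5 receptors, which are also known as dependence receptors because they can promote cell death when no netrin is bound.

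The libraries held 18468485 to 35698991 counts in genes. Between replicates the counts differed by 1.95 to 8.56 times the sampling noise (chi-square per gene), most for the pairs with replicate 3 of TC71 at 48 h. The 10 Ewing sarcoma markers examined, CD99, NKX2-2 and the EWSR1 and FLI1 genes among them, were all present, with a summed level of 2750 to 3160 CPM (counts per 1000000 of the scaled library total), and none passed the 2-fold threshold for a change in either line. At an adjusted p below 0.05 alone (edgeR quasi-likelihood test), 5 rose and 5 fell in EW8 cells, beside 37% and 31.6% of all genes. In TC71 cells 5 rose and 4 fell, beside 22.9% and 19.2%. The endothelial marker in the table stayed at or below 0.207 CPM. Fibroblast markers (3 of 6 in the table) summed to 28.6–30.6 CPM at 0 h and 62.6–69.3 CPM at 48 h in EW8 cells, and to 36.3–39.8 and 60.4–63.2 CPM in TC71 cells. Epithelial markers (3 of 5 in the table) summed to 6.92–9.39 and 21.4–23.2 CPM in EW8 cells and to 71.1–73.1 and 98.4–111 CPM in TC71 cells. Leukocyte markers (3 of 5 in the table) summed to 0.458–0.745 and 4.01–4.73 CPM in EW8 cells and to 0.372–0.894 and 0.858–1.15 CPM in TC71 cells. Of these CSF1R went from 0.372 to 4.20 CPM in EW8 cells, while PTPRC was at 0.114 and 0.1 CPM and CD14 at 0.118 and 0.103 CPM. The part of these markers in the responses of the guidance genes was not tested. RNA counted for RRM1 was higher without doxycycline, at 9.52 ± 0.148 and 70.2 ± 5.54 CPM in EW8 cells and at 16.2 ± 0.98 and 25.4 ± 1.19 CPM in TC71 cells (SD, n = 3). The transgene has other codons and whether its reads were counted is not known, so that this value does not check the labels.

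In EW8 cells 16 of the 50 guidance genes tested changed more than 2-fold after doxycycline removal at an adjusted p below 0.05 (edgeR quasi-likelihood test, Benjamini-Hochberg over all genes), 12 higher and 4 lower. These were 32% of the guidance genes, beside 17.2% of all genes tested, with 24% beside 13.9% for higher genes and 8% beside 3.35% for lower genes. The higher genes were the semaphorins SEMA3A, SEMA3B, SEMA3G, SEMA5B, SEMA6B and SEMA7A, the plexin PLXNC1, the ephrin EFNB2, the Eph receptors EPHA1 and EPHA2, the netrin NTN4 and the receptor UNC5A. UNC5A, EFNB2 and SEMA6B reached the filter's minimum of 0.412 CPM only in EW8 cells at 48 h, so that they were tested because they were high there, and the other 9 higher genes, 19.1% of the 47 genes left without these, were not admitted in this way. With no filter on low counts, 13 of the 56 genes were called higher and 4 lower, which is 23.2% and 7.14% beside 13.4% and 3.5% of all genes. The lower genes were SEMA4G, the ephrins EFNA3 and EFNA4, and UNC5C. The fall of UNC5C in TC71 cells put the set forward, so the shares of lower genes are not independent of that choice. The median log2 fold change was 0.22 over the guidance genes and 0.03 over all genes. Without the fold limit, 25 guidance genes rose and 14 fell, 50% and 28% of those tested, beside 37% and 31.6% of all genes.

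In TC71 cells 3 of the 50 genes passed the same limits, SEMA3A higher and UNC5C and EPHA7 lower. This was 6% of the guidance genes, beside 4.12% of all genes, with 3.26% of all genes higher and 0.854% lower, and since the set was chosen with this comparison in view the share is only a description. The log2 fold change of SEMA3A was 0.98 to 1.14 with a library left out, so it did not pass the 2-fold limit in every such fit. The median log2 fold change was -0.02 over the guidance genes and 0.00 over all genes. The CPM values at 0 h and 48 h did not overlap for 39 of the 50 guidance genes in EW8 cells, beside 71.1% of all genes, and for 33 in TC71 cells, beside 49.6%.

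**Figure D1:**
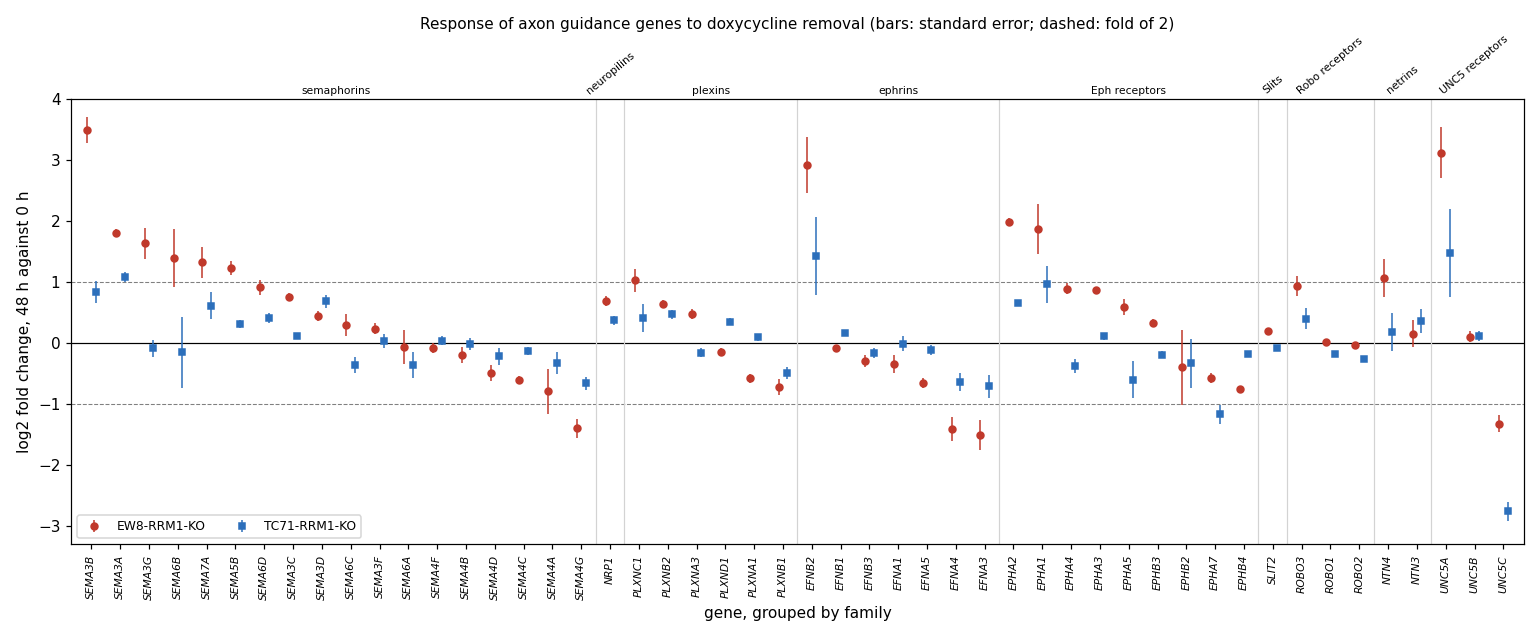
Log2 fold change (y axis, 48 h against 0 h) of the 50 guidance genes tested (x axis, grouped by family and ordered by the EW8 value), with red circles for EW8-RRM1-KO, blue squares for TC71-RRM1-KO, bars for the standard error and dashed lines at a fold of 2. The EW8 values reach from -1.51 for EFNA3 to 3.49 for SEMA3B, and the TC71 values from -2.76 for UNC5C to 1.47 for UNC5A.

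UNC5C, a repulsive netrin receptor, fell in EW8 cells and was the guidance gene with the largest difference in TC71 cells. The gene lies at chr4:95162504-95549206 on the minus strand (hg38). EW8 libraries held 218, 155 and 253 counts of UNC5C at 0 h against 65, 66 and 73 counts at 48 h. The log2 fold change was -1.32 (SE 0.14, adjusted p = 2.18e-10), or 2.5-fold lower, and every library at 48 h was below every library at 0 h. TC71 libraries held 244, 202 and 220 counts at 0 h against 26, 31 and 61 counts at 48 h, for a log2 fold change of -2.76 (SE 0.15) or 6.76-fold lower, and again without overlap. Replicate 3 at 48 h had the highest of the low values, and without it the TC71 log2 fold change was -3.11. The 0 h libraries of the lines overlapped, at 0.816 ± 0.0867 CPM per kilobase of exon in EW8 and 0.877 ± 0.0438 in TC71 cells. In bulk RNA, fewer cells that express a gene and less of its RNA per cell cannot be told apart. An antisense gene, UNC5C-AS1, shares 78 exon bases with UNC5C on the other strand, and whether reads were counted by strand is not given in the sources used here.

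The other UNC5 receptors had positive log2 fold changes in both lines. UNC5A, of the same receptor family, went from 2, 3 and 4 counts to 18, 20 and 28 counts in EW8 cells, a log2 fold change of 3.12 (SE 0.42, adjusted p = 5.27e-08). UNC5A passed the filter on low counts only through EW8 cells at 48 h, so this p-value is no independent evidence of the rise. In TC71 cells its counts were 2, 2 and 0 at 0 h against 5, 4 and 5 at 48 h, and its log2 fold change of 1.47 ranged from 0.91 to 1.93 with a library left out, being lowest without replicate 3 and highest without replicate 2 at 0 h. At 0 h UNC5A was close to the limit of detection in both lines, since a library with 0 counts allows up to 3. UNC5B, the most abundant of the family, held 1165, 911 and 1668 counts at 0 h against 1041, 1100 and 1115 at 48 h in EW8 cells, a log2 fold change of 0.10 (SE 0.09, adjusted p = 0.319). In TC71 cells UNC5B held 2999, 2770 and 2508 counts at 0 h against 3465, 3114 and 4316 at 48 h, for a log2 fold change of 0.12 (SE 0.08) with overlapping groups. Per kilobase UNC5B was at 7.51 ± 0.105 CPM in EW8 and 17.1 ± 2.44 CPM in TC71 cells at 0 h, the highest level among the UNC5 receptors in each line.

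The netrins, which are ligands of these receptors, were scarce. NTN3 was the most abundant, with 35, 26 and 43 counts at 0 h against 34, 25 and 35 at 48 h in EW8 cells (log2 fold change 0.15, SE 0.22, adjusted p = 0.543). In TC71 cells NTN3 held 48, 31 and 33 counts at 0 h against 51, 46 and 75 at 48 h, so that the groups overlapped in both lines. NTN4, a netrin of basement membranes, rose in EW8 cells from 13, 10 and 14 counts to 15, 19 and 29 counts (log2 fold change 1.06, SE 0.31, adjusted p = 0.00301). This call rested on few counts: without replicate 3 of EW8 at 48 h the log2 fold change was 0.78, and without replicate 3 at 0 h it was 0.86. NTN1, the founding member, had 0 to 3 counts in EW8 and 5 to 18 in TC71 libraries. NTN5 had 0 counts in all 6 EW8 libraries, which allows up to 3 counts in each, and 6 to 9 counts in the TC71 libraries. Neither NTN1 nor NTN5 had enough counts to be tested.

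**Figure D2:**
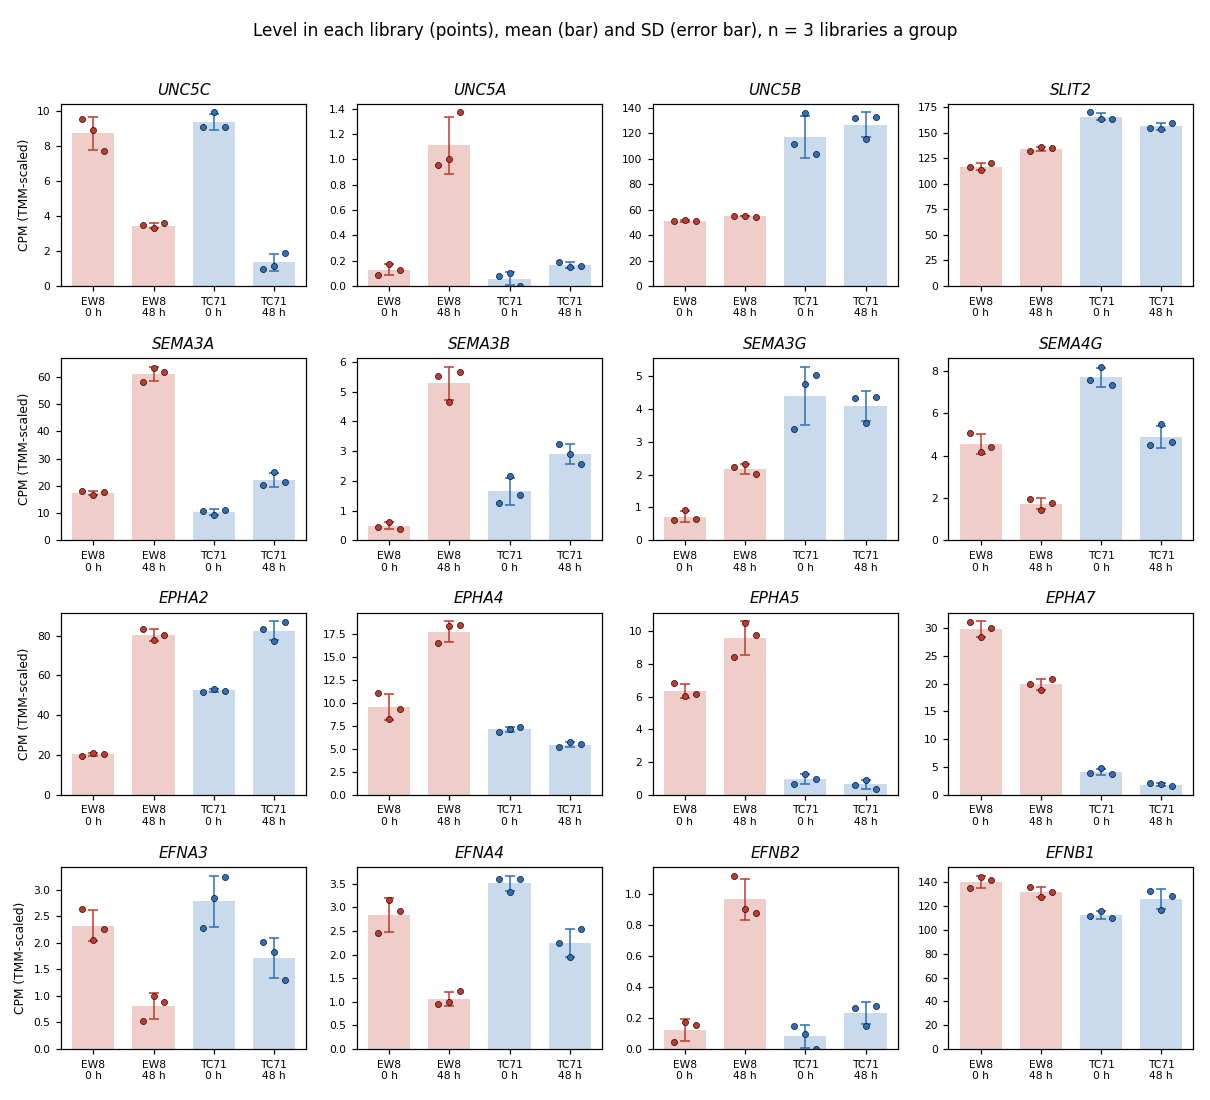
Level in CPM (y axis, scaled between libraries, starting at 0) of 16 guidance genes in each of the 4 groups (x axis), with points for the libraries, bars for the mean and error bars for the SD (n = 3). UNC5C sits lower at 48 h in both lines, whereas SEMA3B, UNC5A and EFNB2 stand highest in EW8 cells at 48 h and EFNB1 and UNC5B differ little between 0 h and 48 h.

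Among the 18 semaphorins, all of which were tested, 6 were called higher and 1 lower in EW8 cells, beside 13.9% and 3.35% of all genes, with log2 fold changes from -1.40 to 3.49 and a median of 0.37. Among the secreted class 3 semaphorins, SEMA3A, SEMA3B, SEMA3C, SEMA3D, SEMA3F and SEMA3G each rose with an adjusted p below 0.05, beside 37% of all genes, SEMA3A, SEMA3B and SEMA3G by more than 2-fold. SEMA3A, the prototype of repulsive semaphorins, held 412, 291 and 582 counts at 0 h against 1094, 1263 and 1264 counts at 48 h in EW8 cells. Its log2 fold change was 1.80 (SE 0.07, adjusted p = 1.41e-21), and the groups did not overlap. In TC71 cells SEMA3A went from 285, 192 and 274 counts to 528, 671 and 694 counts, a log2 fold change of 1.08 (SE 0.08), also without overlap. With a library left out this TC71 value was 0.98 to 1.14, below the 2-fold limit at its lowest. SEMA3B, a secreted semaphorin encoded in a region of 3p that many tumors lose, held 10, 11 and 13 counts at 0 h against 104, 93 and 116 counts at 48 h in EW8 cells. This was the steepest rise of the set, with a log2 fold change of 3.49 (SE 0.22, adjusted p = 8.62e-16) or 11.2-fold. TC71 cells held 34, 44 and 37 counts of SEMA3B at 0 h against 85, 78 and 83 at 48 h, for a log2 fold change of 0.84 (SE 0.18). SEMA3G, known from endothelial cells, rose in EW8 cells from 14, 16 and 21 counts to 42, 46 and 41 counts (log2 fold change 1.63, SE 0.25, adjusted p = 4.32e-07), while in TC71 cells 91, 97 and 122 counts at 0 h stood beside 114, 96 and 141 at 48 h (log2 fold change -0.09).

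The remaining class 3 semaphorins rose by less than 2-fold in EW8 cells. SEMA3C was, with SEMA4C, the most abundant semaphorin per kilobase at 0 h, at 4.09 and 7.42 CPM in EW8 cells and at 9.25 and 8.99 CPM in TC71 cells. SEMA3C held 609, 425 and 782 counts at 0 h against 741, 869 and 891 at 48 h (log2 fold change 0.76, SE 0.06, adjusted p = 2.7e-13), and in TC71 cells 1498, 1147 and 1382 beside 1553, 1708 and 1946 (log2 fold change 0.11). SEMA3D, which lies 502.8 kb from SEMA3A on chromosome 7, held 411, 306 and 580 counts at 0 h against 408, 520 and 498 at 48 h in EW8 cells (log2 fold change 0.44, SE 0.08, adjusted p = 1.96e-05). In TC71 cells SEMA3D held 218, 127 and 214 counts at 0 h against 312, 352 and 402 at 48 h (log2 fold change 0.68, SE 0.10), and the groups did not overlap in either line. SEMA3F lies 78.5 kb from SEMA3B on chromosome 3, and unlike its neighbor it moved little, with 310, 247 and 472 counts at 0 h against 348, 277 and 351 at 48 h in EW8 cells (log2 fold change 0.23, SE 0.09, adjusted p = 0.0218). Its EW8 groups overlapped, and in TC71 cells it held 133, 97 and 113 beside 138, 125 and 156 counts (log2 fold change 0.03).

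Class 4 semaphorins, which are membrane-anchored and bind mainly B-type plexins, had negative values in EW8 cells for all 6 members, of which SEMA4C, SEMA4D and SEMA4G passed an adjusted p below 0.05, beside 31.6% of all genes lower at that limit and 3.35% past 2-fold. SEMA4G held 116, 73 and 145 counts at 0 h against 37, 29 and 36 at 48 h (log2 fold change -1.40, SE 0.16, adjusted p = 2.04e-09), and was the only one to fall more than 2-fold. In TC71 cells it held 203, 167 and 177 counts at 0 h against 118, 147 and 150 at 48 h, for a log2 fold change of -0.66 (SE 0.11), without overlap in either line. SEMA4G shares 1215 exon bases with MRPL43 on the other strand, and MRPL43 itself had a log2 fold change of -0.44 in EW8 cells (adjusted p = 3.12e-07). How reads in the shared bases were assigned is not given in the sources used here. The others ranged from -0.79 for SEMA4A (adjusted p = 0.0571) to -0.08 for SEMA4F (adjusted p = 0.327), with SEMA4C at -0.61 (adjusted p = 8.44e-10) and SEMA4D at -0.49 (adjusted p = 0.000908).

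Semaphorins of classes 5 to 7 rose or did not pass the test in EW8 cells. SEMA5B, a transmembrane semaphorin with thrombospondin repeats, held 89, 65 and 137 counts at 0 h against 187, 168 and 198 at 48 h (log2 fold change 1.23, SE 0.11, adjusted p = 3.86e-12). In TC71 cells, where SEMA5B was more abundant, 1134, 886 and 1046 counts at 0 h stood beside 1502, 1309 and 1719 at 48 h (log2 fold change 0.31, SE 0.06). SEMA6D held 74, 50 and 128 counts at 0 h against 126, 122 and 132 at 48 h in EW8 cells (log2 fold change 0.91, SE 0.12, adjusted p = 4.49e-08), and 322, 259 and 294 beside 420, 435 and 535 counts in TC71 cells (log2 fold change 0.41). SEMA7A, the lipid-anchored semaphorin, rose from 17, 10 and 27 counts to 31, 31 and 47 (log2 fold change 1.32, SE 0.25, adjusted p = 2.68e-05). SEMA6B rose from 1, 3 and 10 counts to 8, 10 and 12 (log2 fold change 1.39, SE 0.48, adjusted p = 0.0105), but without replicate 1 at 0 h the log2 fold change was 0.93 (adjusted p = 0.0907) and without replicate 3 at 0 h it was 2.26. SEMA6B passed the filter on low counts only through EW8 cells at 48 h, so its p-value is no independent evidence of the rise. SEMA6C held 57, 34 and 70 counts at 0 h against 41, 57 and 63 at 48 h in EW8 cells (log2 fold change 0.30, SE 0.18, adjusted p = 0.146), with overlapping groups. SEMA6A was at -0.07 (adjusted p = 0.829).

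Among the semaphorin receptors, NRP1 and all 6 plexins tested passed an adjusted p below 0.05 in EW8 cells, as did 68.6% of all genes, and PLXNC1 passed the 2-fold limit. NRP1, the neuropilin that pairs with SEMA3A and also binds VEGF, held 370, 218 and 532 counts at 0 h against 431, 482 and 538 at 48 h in EW8 cells (log2 fold change 0.69, SE 0.08, adjusted p = 1.87e-09). In TC71 cells NRP1 held 804, 584 and 743 counts at 0 h against 997, 1004 and 1293 at 48 h (log2 fold change 0.37, SE 0.07). Of the 6 plexins tested, PLXNA3, PLXNB2 and PLXNC1 rose and PLXNA1, PLXNB1 and PLXND1 fell in EW8 cells at an adjusted p below 0.05, with log2 fold changes from -0.72 for PLXNB1 to 1.03 for PLXNC1. PLXNC1, the receptor of SEMA7A, went from 34, 27 and 41 counts to 45, 59 and 66 (SE 0.19, adjusted p = 1.34e-05), and was at 0.89 without replicate 3 at 0 h and at 0.93 without replicate 3 at 48 h. PLXNB2, the most abundant plexin in TC71 cells, held 1532, 1329 and 2081 counts at 0 h against 2086, 2013 and 2211 at 48 h in EW8 cells (log2 fold change 0.64, SE 0.07, adjusted p = 1.04e-06). In TC71 cells it held 5328, 4203 and 4474 counts at 0 h against 7616, 6563 and 9135 at 48 h (log2 fold change 0.47, SE 0.07), and the groups did not overlap in either line. PLXNB3 had 0 to 6 counts and was not tested.

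Of the 7 ephrins, EFNA1, EFNA3, EFNA4, EFNA5 and EFNB3 fell in EW8 cells at an adjusted p below 0.05 and EFNB2 rose, where 31.6% of all genes fell and 37% rose. All 4 lipid-anchored ephrin-A genes in the table were among those that fell, and EFNA3 and EFNA4 passed the 2-fold limit. EFNA4 held 56, 55 and 96 counts at 0 h against 18, 20 and 25 at 48 h in EW8 cells (log2 fold change -1.41, SE 0.20, adjusted p = 1.31e-07). EFNA3 held 60, 36 and 74 counts at 0 h against 10, 20 and 18 at 48 h (log2 fold change -1.51, SE 0.25, adjusted p = 1.74e-06). In TC71 cells EFNA4 held 97, 68 and 87 counts beside 59, 52 and 82 (log2 fold change -0.64, SE 0.15), and EFNA3 held 61, 58 and 78 beside 53, 49 and 42 (log2 fold change -0.71, SE 0.19). For both genes the groups did not overlap in either line. They are neighbors on the plus strand of chromosome 1, EFNA4 at chr1:155063737-155069553 and EFNA3 at chr1:155078837-155087538 (hg38), 9.3 kb apart, and EFNA1 begins 40.3 kb beyond EFNA3. A readthrough gene, EFNA4-EFNA3, shares 189 exon bases with EFNA4 and 853 with EFNA3, so that their counts may not be independent. EFNA1, the third gene of the cluster, was at -0.34 in EW8 cells (SE 0.15, adjusted p = 0.0399) with overlapping groups and at -0.01 in TC71 cells. EFNA5, on another chromosome, was at -0.66 in EW8 cells (SE 0.08, adjusted p = 2.88e-09) and at -0.12 in TC71 cells.

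The transmembrane ephrins did not move together. EFNB1 was the most abundant guidance gene per kilobase in both lines, and held 3082, 2528 and 4667 counts at 0 h against 2563, 2557 and 2695 at 48 h in EW8 cells (log2 fold change -0.09, SE 0.05, adjusted p = 0.087). In TC71 cells EFNB1 held 3002, 2374 and 2654 counts at 0 h against 3482, 3129 and 4174 at 48 h (log2 fold change 0.16, SE 0.05). EFNB2, the ligand of EPHB4 in vessels, rose in EW8 cells from 1, 3 and 5 counts to 21, 18 and 18 (log2 fold change 2.92, SE 0.46, adjusted p = 8.77e-07), and in TC71 cells 4, 2 and 0 counts stood beside 7, 4 and 9. The 0 h counts of EFNB2 were at or near the limit of 3 counts that a library with none allows. EFNB2 passed the filter on low counts only through EW8 cells at 48 h, so its p-value is no independent evidence of the rise. A gene with no symbol shares 1822 exon bases with EFNB2 on the other strand. EFNB3 was at -0.29 in EW8 cells (SE 0.10, adjusted p = 0.0132).

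Of the 9 Eph receptors tested, 6 rose and 2 fell in EW8 cells at an adjusted p below 0.05, where 37% of all genes rose and 31.6% fell, and EPHA1 and EPHA2 passed the 2-fold limit. EPHA2, a receptor of ephrin-A ligands that is abundant in many tumors, held 445, 364 and 665 counts at 0 h against 1570, 1548 and 1637 at 48 h in EW8 cells. Its log2 fold change was 1.99 (SE 0.06, adjusted p = 2.0e-25), or 3.98-fold, with every library at 48 h above every library at 0 h. In TC71 cells EPHA2 held 1390, 1085 and 1261 counts at 0 h against 2184, 2066 and 2799 at 48 h, for a log2 fold change of 0.65 (SE 0.05), again without overlap. At 48 h the lines differed by less than the SD, at 19.4 ± 0.712 CPM per kilobase in EW8 and 19.9 ± 1.17 in TC71 cells, from 4.88 ± 0.165 and 12.6 ± 0.179 at 0 h. EPHA1 rose in EW8 cells from 6, 2 and 6 counts to 15, 16 and 11 (log2 fold change 1.86, SE 0.41, adjusted p = 0.000148). EPHA3, the most abundant EphA receptor in EW8 cells at 0 h, held 2158, 1477 and 2985 counts at 0 h against 3006, 3272 and 3409 at 48 h (log2 fold change 0.86, SE 0.05, adjusted p = 5.52e-16), and in TC71 cells 1673, 1106 and 1494 beside 1566, 1840 and 2072 with overlap (log2 fold change 0.11).

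EPHA4, EPHA5 and EPHA7 are receptors with prominent roles in the developing nervous system. EPHA4 held 253, 144 and 308 counts at 0 h against 311, 367 and 378 at 48 h in EW8 cells (log2 fold change 0.89, SE 0.09, adjusted p = 1.79e-10), whereas in TC71 cells 184, 146 and 179 counts stood beside 136, 153 and 178 (log2 fold change -0.38, SE 0.11). EPHA5 held 156, 106 and 202 counts at 0 h against 159, 209 and 200 at 48 h in EW8 cells (log2 fold change 0.59, SE 0.13, adjusted p = 0.00011), and 17, 26 and 23 beside 16, 24 and 12 counts in TC71 cells (log2 fold change -0.60, SE 0.30). For EPHA4 the groups did not overlap in either line, and for EPHA5 they overlapped in TC71 cells. EPHA7 was lower at 48 h in each line, with 710, 494 and 983 counts beside 377, 376 and 425 in EW8 cells (log2 fold change -0.58, SE 0.08, adjusted p = 2.43e-08). In TC71 cells EPHA7 held 106, 97 and 88 counts at 0 h against 54, 50 and 50 at 48 h, for a log2 fold change of -1.17 (SE 0.15). The EphB receptors ranged in EW8 cells from -0.76 for EPHB4 (adjusted p = 1.38e-14) to 0.33 for EPHB3 (adjusted p = 5.22e-05). EPHA10, EPHB1 and EPHB6 had 0 to 10 counts in every library and were not tested.

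SLIT2, ROBO1 and ROBO2 were abundant, with log2 fold changes from -0.26 to 0.20 in the lines, while ROBO3 was scarcer and rose in EW8 cells. SLIT2, a ligand of the Robo receptors and the only Slit in the table, held 2668, 1990 and 3920 counts at 0 h against 2484, 2710 and 2755 at 48 h in EW8 cells (log2 fold change 0.20, SE 0.04, adjusted p = 6.43e-05). In TC71 cells SLIT2 held 4556, 3343 and 3966 counts at 0 h against 4066, 4135 and 5174 at 48 h (log2 fold change -0.08, SE 0.04). ROBO1 held 4416, 3397 and 6310 counts at 0 h against 3595, 3955 and 3982 at 48 h in EW8 cells, a log2 fold change of 0.01 (SE 0.04, adjusted p = 0.846) with overlapping groups. In TC71 cells ROBO1 held 2401, 1704 and 1972 counts at 0 h against 1957, 2051 and 2398 at 48 h (log2 fold change -0.18, SE 0.04). ROBO2, which lies 947.3 kb from ROBO1 on chromosome 3, was at -0.04 in EW8 cells (SE 0.04, adjusted p = 0.425) and at -0.26 in TC71 cells (SE 0.04). ROBO3, a less abundant relative that modulates midline crossing, rose in EW8 cells from 49, 44 and 58 counts to 73, 74 and 88 (log2 fold change 0.93, SE 0.16, adjusted p = 5.83e-06).

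The responses of the lines were compared directly as the EW8 response minus the TC71 response, for the 49 genes other than UNC5C, whose TC71 value put the set forward. The difference passed the 2-fold limit and an adjusted p below 0.05 for 5 genes, all with the larger value in EW8 cells, which was 10.2% of the guidance genes beside 8.26% of all genes. In this direction the share was 10.2% beside 7.28%. SEMA3B differed by 2.65 on the log2 scale (SE 0.31, adjusted p = 1.22e-08), SEMA3G by 1.72 (SE 0.29, adjusted p = 5.82e-06) and EPHA2 by 1.34 (SE 0.08, adjusted p = 6.92e-16). These genes had the lower 0 h level in EW8 cells. EPHA4 differed by 1.27 (SE 0.14, adjusted p = 4.81e-09) and EPHA5 by 1.19 (SE 0.32, adjusted p = 0.0027), and both had the higher 0 h level in EW8 cells. EPHA5 dropped below the 2-fold limit, to 0.95, without replicate 2 of TC71 at 0 h and to 0.88 without replicate 3 of TC71 at 48 h. UNC5A and EFNB2, with estimates of 1.66 (SE 1.05, adjusted p = 0.198) and 1.49 (SE 0.93, adjusted p = 0.193), did not pass the test, and held 0 to 9 counts in the TC71 libraries. No guidance gene passed the limits in the other direction, beside 0.981% of all genes, and at an adjusted p below 0.05 alone 9 did and 18 were higher in EW8 cells, beside 22.4% and 25.7% of all genes. The 9 included EFNA3 (-0.81), EFNA4 (-0.77) and SEMA4G (-0.75), with adjusted p of 0.035, 0.0128 and 0.00235.

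**Figure D3:**
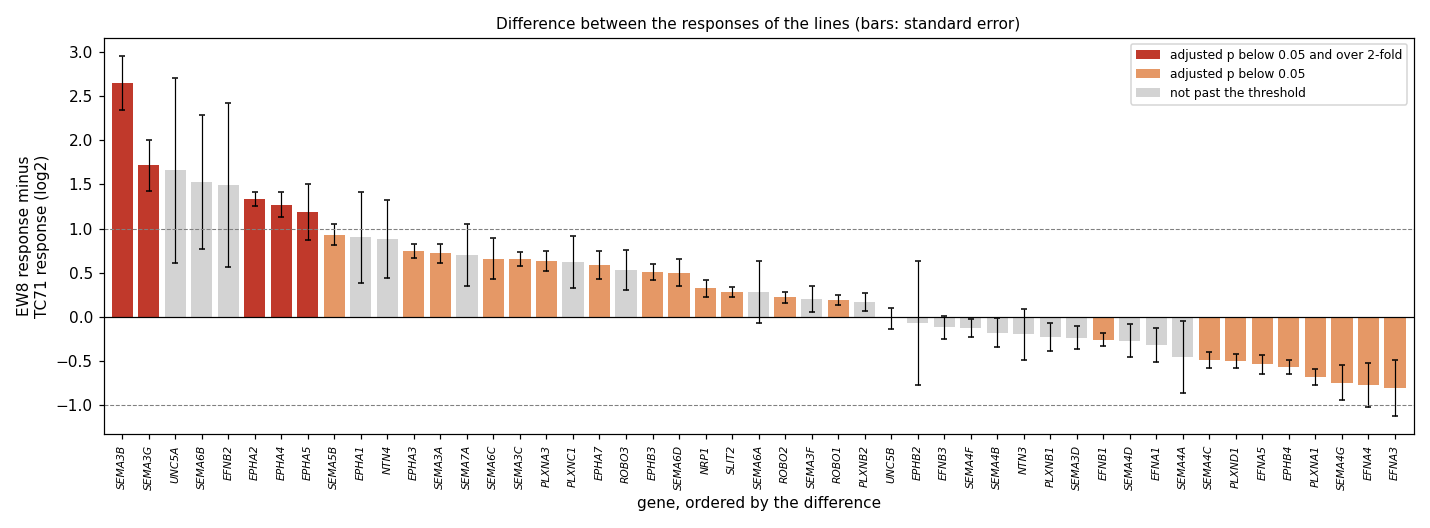
EW8 response minus TC71 response (y axis, log2) for the 49 genes tested (x axis, ordered by the difference), with bars colored by the test and error bars for the standard error. SEMA3B, SEMA3G, EPHA2, EPHA4 and EPHA5 pass both limits, whereas UNC5A, SEMA6B and EFNB2 have wide errors and do not.

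The levels at 0 h describe the cells before doxycycline was removed. Per kilobase of exon, EFNB1 led in both lines, at 42.6 ± 1.55 CPM in EW8 and 34.1 ± 1.03 in TC71 cells (SD, n = 3). It was followed in EW8 cells by EPHB4 (17.7 ± 0.636), ROBO1 (17.5 ± 0.0968), ROBO2 (14.5 ± 0.0444), EPHA3 (13.7 ± 0.764), SLIT2 (10.6 ± 0.252) and PLXND1 (10.5 ± 1.03), where EPHB4 and ROBO1 and likewise SLIT2 and PLXND1 were within 1 SD of each other. In TC71 cells the order after EFNB1 was PLXNB2 (27.0 ± 1.46), UNC5B (17.1 ± 2.44), SLIT2 (15 ± 0.297), PLXND1 (13.5 ± 0.79), EPHB4 and EPHA2 (12.6 ± 0.362 and 12.6 ± 0.179) and ROBO2 (11 ± 0.261). EPHB4 and EPHA2 were within 1 SD of each other, as were UNC5B and SLIT2. At the low end, EFNB2 was at 0.0245 ± 0.0138 and 0.0165 ± 0.0151 CPM per kilobase, while EPHB4, its usual receptor, was among the most abundant Eph genes.

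Between the lines at 0 h, 19 of 49 genes differed more than 2-fold at an adjusted p below 0.05, 5 higher and 14 lower in EW8 cells. This was 38.8% of the guidance genes beside 16.7% of all genes, with 10.2% beside 4.77% higher and 28.6% beside 11.9% lower. Line and culture cannot be told apart, and these comparisons use the same 0 h libraries as the responses. The genes higher in EW8 cells were EPHA7 (log2 difference 2.87, SE 0.09, adjusted p = 1.03e-23), EPHA5 (2.77, SE 0.19, adjusted p = 8.38e-15), SEMA3F (1.55, SE 0.11, adjusted p = 5.8e-15), SEMA3D (1.19, SE 0.10, adjusted p = 4.44e-13) and ROBO1 (1.19, SE 0.04, adjusted p = 1.25e-22). The largest gap was that of SEMA5B, which was 10.8-fold lower in EW8 cells (log2 difference -3.43, SE 0.09, adjusted p = 3.52e-27). SEMA3G was at -2.63 (SE 0.21, adjusted p = 2.82e-13), SEMA4A at -1.97 (SE 0.23, adjusted p = 3.74e-09) and SEMA6D at -1.84 (SE 0.11, adjusted p = 6.31e-17). SEMA3B was at -1.78 and PLXNB2 at -1.52, followed by EPHA2 at -1.38, SEMA6C at -1.33, EPHA1 at -1.25, UNC5B at -1.19, SEMA3C at -1.18, EFNB3 at -1.10, EPHB2 at -1.08 and SEMA4B at -1.04. EPHB2 reached the filter's minimum only in TC71 libraries, so that it was tested because it was higher there, and its 0 h libraries overlapped between the lines. Without it 18 of 48 genes were called and 13 were lower, or 37.5% and 27.1%. The call of EPHA1 was lost without replicate 3 of EW8 (adjusted p = 0.0512) and without replicate 1 of TC71 (adjusted p = 0.0522). For the semaphorins as a family 2 were higher and 8 lower in EW8 cells, for the Eph receptors 2 and 3.

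**Figure D4:**
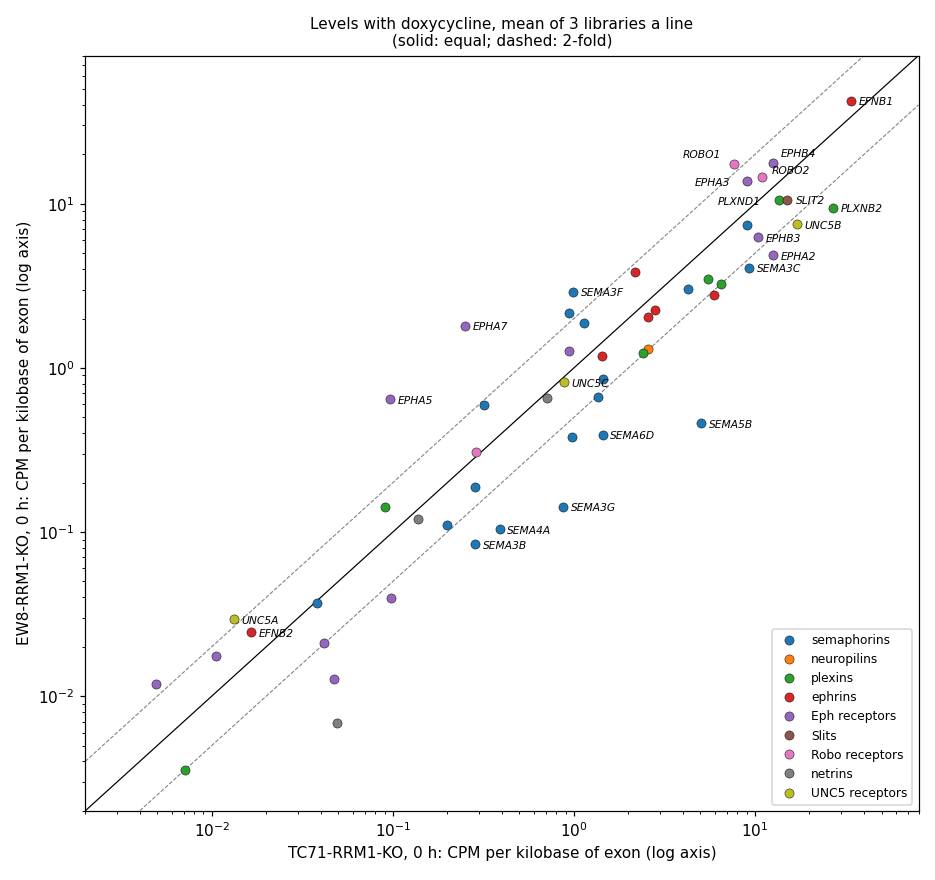
Level at 0 h in EW8-RRM1-KO (y axis) against TC71-RRM1-KO cells (x axis), in CPM per kilobase of exon on log axes, for the 55 guidance genes above 0 in both lines; points are means of 3 libraries colored by family, the solid line marks equal levels and the dashed lines a 2-fold difference. UNC5C lies near the solid line, SEMA5B farthest below it, and EPHA5 and EPHA7 farthest above it among the labelled genes.

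Other proteins that work with these cues were taken from lists made from general knowledge. Of 26 surface and secreted partners 19 were in the table and 16 tested, and in EW8 cells 3 were called higher and 1 lower, beside 13.9% and 3.35% of all genes. DRAXIN, a secreted repellent that binds netrin receptors, held 12, 12 and 17 counts at 0 h against 70, 69 and 81 at 48 h in EW8 cells (log2 fold change 2.71, SE 0.24, adjusted p = 4.18e-12), and the adhesion molecule NRCAM and the hedgehog co-receptor BOC were at 1.51 (adjusted p = 3.13e-17) and 1.55 (adjusted p = 1.57e-08). NTNG2, a membrane-anchored netrin-G, fell by 1.33 on the log2 scale (SE 0.32, adjusted p = 0.000421). In TC71 cells DRAXIN (1.74) and NRCAM (1.05) were called higher and none lower, beside 3.26% and 0.854% of all genes. The medians of the list were 0.11 in EW8 and 0.04 in TC71 cells.

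Of 52 intracellular signalling partners 46 were in the table and 44 tested, with 4 called higher and none lower in EW8 cells, beside 13.9% and 3.35% of all genes, and none higher and 1 lower in TC71 cells, beside 3.26% and 0.854%. The higher genes included RND1, a small GTPase that binds plexins (2.43, SE 0.29, adjusted p = 5.95e-09), NGEF, an exchange factor that acts downstream of EphA receptors (1.41, SE 0.07, adjusted p = 3.94e-19), and FES, a tyrosine kinase (1.17, SE 0.31, adjusted p = 0.00125). ABLIM1, an actin-binding protein, was the gene called lower in TC71 cells (-2.04, SE 0.10) and was at -0.84 in EW8 cells (SE 0.06, adjusted p = 2.85e-15). At an adjusted p below 0.05 alone, 13 of the 44 signalling genes rose and 17 fell in EW8 cells, beside 37% and 31.6% of all genes, and the list's median was -0.04 in each line.

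The stretches before an annotated start of 4 of these genes are shown because EFNA4 and EFNA3 are neighbors that fell together in EW8 cells, SEMA3B rose most and EPHA2 holds a searched motif. Each run is 250 bases long, read 5′ to 3′ on the strand of the gene and in lower case, with a match to the cyclic AMP response element TGACGTCA in capitals. The sequences are from RefSeq promoters (GRCh38.p14), at chr1:155063490-155063739 for EFNA4, chr1:155078587-155078836 for EFNA3 and chr3:50272869-50273118 for SEMA3B on the plus strand and at chr1:16156070-16156319 for EPHA2 on the minus strand. The SEMA3B run precedes an internal start: it lies inside the gene as GENCODE gives it (chr3:50267558-50277546), outside its exons, and does not precede the gene's outermost start.
EFNA4: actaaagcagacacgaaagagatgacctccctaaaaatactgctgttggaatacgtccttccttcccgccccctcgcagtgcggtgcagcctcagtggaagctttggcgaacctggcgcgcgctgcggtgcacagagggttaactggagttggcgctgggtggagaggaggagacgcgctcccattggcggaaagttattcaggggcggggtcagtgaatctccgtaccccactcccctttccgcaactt
EFNA3: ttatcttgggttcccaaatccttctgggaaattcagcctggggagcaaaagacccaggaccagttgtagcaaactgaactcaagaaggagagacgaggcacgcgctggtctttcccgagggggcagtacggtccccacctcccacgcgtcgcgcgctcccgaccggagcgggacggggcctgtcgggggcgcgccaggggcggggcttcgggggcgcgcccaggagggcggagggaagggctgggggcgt
SEMA3B: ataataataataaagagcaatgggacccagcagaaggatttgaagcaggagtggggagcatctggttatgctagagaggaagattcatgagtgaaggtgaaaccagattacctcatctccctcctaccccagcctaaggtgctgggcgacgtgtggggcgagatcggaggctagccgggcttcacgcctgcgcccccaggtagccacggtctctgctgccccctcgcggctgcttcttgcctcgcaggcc
EPHA2: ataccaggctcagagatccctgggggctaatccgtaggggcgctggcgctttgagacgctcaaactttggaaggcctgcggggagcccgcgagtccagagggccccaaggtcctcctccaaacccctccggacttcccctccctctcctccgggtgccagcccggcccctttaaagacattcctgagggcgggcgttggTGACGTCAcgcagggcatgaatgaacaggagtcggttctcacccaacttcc

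RefSeq promoters, from 250 bases before to 50 after the start, were available for 47 of the 56 genes. SEMA3A and SEMA6B, called higher in EW8 cells, were among the genes without a promoter. Like that of SEMA3B, the windows of PLXNC1, ROBO2, SEMA4B and some others precede internal starts, so other starts of these genes were not searched. Both strands were searched for the AP-1 motif TGACTCA and for TGACGTCA, motifs whose letters do not contain each other. The AP-1 motif was in 0 of the 47 promoters, beside 4.95% of 35116 promoters and 3.54% of those of tested genes. The motif TGACGTCA was in those of EPHA2, beginning 51 bases before the start, and of SEMA4C, beginning 40 bases before it, which is 4.26% of the 47 beside 1.85% of all promoters and 2.75% of those of tested genes. EPHA2 rose and SEMA4C fell in EW8 cells. G and C made up 58.3% of the EFNA4 promoter, 69.3% of that of EFNA3, 57.7% of that of SEMA3B and 64.3% of that of EPHA2.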

How the data were processed

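Polyadenylated RNA was sequenced by the authors from stranded TruSeq mRNA libraries (paired-end, 100 bases, NovaSeq), checked with FastQC and aligned with STAR to hg38. The deposited values are raw counts per gene for 12 libraries, with Ensembl identifiers and symbols, and the counting tool, its strand setting and its annotation are not given in the sources used here. The table lists genes with at least 21 counts over all libraries, and 773 genes have no symbol.

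Groups followed the labels. Counts were scaled by TMM, filtered with filterByExpr (minimum count 10, minimum total 15, over the 4 groups) and fitted in 1 model over the 12 libraries with edgeR 4.0.16 in R 4.3.3 (robust quasi-likelihood, limma 3.58.1). The common biological coefficient of variation was 4.17%. A gene was called at a Benjamini-Hochberg adjusted p below 0.05 over 16515 genes and a fold above 2. Standard errors are the log2 fold change over the root of the F statistic. Overlap between groups was judged on CPM, and levels per kilobase used the union of exons in GENCODE release 44 (hg38), which held all 56 symbols and 19943 of the 20771 identifiers. In that release 68 symbols match the family pattern, and those outside the table were not analysed here. Library totals set the precision, and a count of 0 allows up to 3 counts.

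The members and lists were chosen with earlier results of these data known. Genes given with counts in every library were UNC5C, called genes with groups that did not overlap and a mean of 20 counts or more in the lower group, and the gene of each family with the highest level per kilobase averaged over the 4 groups. SEMA3B, SEMA3G, SEMA6B, SEMA7A, UNC5A, NTN4, EFNA3, EFNB2 and EPHA1 were called with fewer counts and were named after their values were seen, as were ROBO3 and DRAXIN. In simulated EW8 comparisons the fit recovered 200 of 200 changed genes and called 3 unchanged genes among 15860. Recovery of genes with few counts, such as UNC5A and EFNB2, or with a fold near the limit, such as NTN4 and PLXNC1, was not tested separately. Alternatives were DESeq2 1.42.0 (Wald test, and its size factors), total counts, other filters, no fold limit, each line alone, a replicate block and leaving out each library.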

Additional observations from a re-analysis of the deposited data

Results flagged for a closer look

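The response to doxycycline removal differed between the EW8 and TC71 knockout lines for 5 guidance genes by a test of the difference itself (edgeR quasi-likelihood test of EW8 response minus TC71 response, adjusted p below 0.05 over all genes, fold above 2). The difference on the log2 scale was 2.65 for SEMA3B and 1.72 for SEMA3G, secreted semaphorins, and 1.34 for the ephrin receptor EPHA2. For EPHA4 and EPHA5, whose RNA was higher at 48 h in EW8 cells and had negative log2 fold changes in TC71 cells, it was 1.27 and 1.19. The TC71 groups of EPHA5 overlapped, and its difference fell below the 2-fold limit without replicate 2 of TC71 at 0 h (0.95) and without replicate 3 of TC71 at 48 h (0.88). UNC5C was not tested in this way. Among all genes tested 8.26% had such a difference, beside 10.2% of the guidance genes.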

How the results depend on the processing

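The counts of guidance genes called stayed within 1.5 times of the reported ones with DESeq2's test or size factors, no filter, at least 10 counts in every library (8 higher in EW8, from 12, where 1204 of all 13210 genes were higher), and each line alone. Without the fold limit they were 25 higher and 14 lower in EW8 (beside 37% and 31.6% of all genes), 13 and 12 in TC71 (22.9% and 19.2%), 27 for the difference between responses (48.1%) and 40 between lines at 0 h (65.7%), and for the partner genes 20 and 21 in EW8 and 20 and 20 in TC71, of 60 tested. With total counts alone 2 guidance genes were higher in TC71, and the median of all genes moved by 0.13 in EW8 and by -0.13 between lines. With at least 10 counts in every library, the partner genes called were 4 higher and 0 lower in EW8 and 1 higher in TC71.

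Leaving out each library in turn gave 10 to 13 guidance genes higher and 4 to 5 lower in EW8, 1 to 3 higher and 2 to 2 lower in TC71, 4 to 6 for the difference between responses and 18 to 22 at 0 h. For the partner genes it gave 6 to 8 higher and 1 to 1 lower in EW8 and 2 to 3 higher and 1 to 3 lower in TC71. Over all 16891 to 16963 genes tested, these fits called 2233 to 2429 higher and 566 to 641 lower in EW8. In TC71 they called 525 to 571 higher and 109 to 187 lower. For the difference between responses they called 1086 to 1249 higher and 139 to 192 lower, and at 0 h 793 to 830 and 1939 to 2067. Same-numbered replicates did not deviate together (correlations -0.138 to -0.0147). Such correlations, taken over all genes, cannot show whether the libraries were grown or collected as pairs. With the replicate block 12 and 4 guidance genes were called in EW8, 1 and 2 in TC71, 5 for the difference and 18 at 0 h, and over all genes 2290 and 566 in EW8.

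Among the genes recomputed, the sign turned for 8 values, none of which passed the test or, in TC71, the 2-fold limit. EFNB1 in EW8 was 0.03 with total counts alone. ROBO1 in EW8 was -0.0013 with at least 10 counts in every library, -0.02 with each line alone, and -0.03 to 0.02 with a library left out. For the difference between responses UNC5B was 0.05 with total counts alone and -0.14 to 0.05 with a library left out. At 0 h SEMA6B was -0.07 with total counts alone, -0.02 with the replicate block and -0.83 to 0.5 with a library left out, and EFNB2 was -0.04 to 1.36. In TC71, with a library left out, SEMA3G was -0.26 to 0.04, SEMA3F -0.02 to 0.06 and SEMA6B -0.45 to 0.15. The cause was not tested. Depth limits UNC5A, EFNB2, SEMA6B and NTN4, whose 0 h groups hold at most 15 counts a library.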
